A study of Homo sapiens with 6 samples.

Results

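The genes described here encode the machinery with which neurons store transmitter in synaptic vesicles, fuse those vesicles with the plasma membrane and recover them. They are 51 genes chosen by symbol, all of them rows of a deposited table of 50883 gene symbols: 12 synaptotagmins, 4 SNARE proteins, 5 SNARE regulators, 10 vesicle proteins, 4 RAB3 GTPases, 9 active zone and priming proteins, syntaphilin, 3 endocytosis proteins and 3 vesicular transporters. Both groups were D283 cells, an established medulloblastoma line (medulloblastoma is a malignant brain tumour of the cerebellum), and both had been infected with lentivirus that expressed GFP. The OTX2 knockout group carried a guide RNA against OTX2, a homeodomain protein that controls transcription in developing brain and retina, and the control group a non-targeting guide. Each group comprised 3 infections, collected after 7 days, and total RNA was sequenced. Sources used here do not give the origin of the nuclease, the number of guides or the share of edited cells. The infections are separate but the line is 1, so p-values measure the spread between infections. In bulk RNA, fewer cells that express a gene and less RNA per cell cannot be told apart.

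Release begins when SNARE proteins on the vesicle (VAMP) and on the plasma membrane (STX1A and SNAP25) zip together. RIMS and UNC13 proteins of the active zone dock and prime the vesicle, complexins hold and assist the SNARE complex, and synaptotagmins that bind calcium trigger fusion. Vesicular transporters fill the vesicle, synapsins tether it in a reserve pool, and dynamin, amphiphysin and SNAP91 take part in its retrieval. In the cerebellum, the glutamatergic neurons that arise from the rhombic lip use this machinery, and photoreceptors of the retina use a variant of it at ribbon synapses.

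Levels are CPM, counts scaled to a common library size with TMM factors (trimmed mean of M values), given as mean ± SD over 3 libraries per group, and changes are log2 fold changes of knockout over control with their standard error (SE). Library totals lay between 54540645 and 62166870 counts, and 3 counts, the limit used for a gene with no counts, correspond to 0.0471 to 0.0563 CPM. These limits cover counting error only. OTX2 RNA held 765, 824 and 887 CPM in the knockout libraries, against 1002, 979 and 909 CPM in the control libraries, which is -0.22 on the log2 scale (SE 0.06, adjusted p = 0.00646, edgeR quasi-likelihood). The groups did not overlap, but the gap was small, and edited transcripts can persist. Control replicate 1 stood apart, with 0.764% of its counts from mitochondrial genes, against 0.440% to 0.601% in the other 5 libraries. The labelled cell type was checked on 9 genes typical of the line's tumour type, all of which were tested. Of the 9, 7 fell, where 18.5% of all tested genes fell and 21.2% rose. The direction of a change does not check the label. MYC (1204 ± 159 CPM in knockout and 1725 ± 118 CPM in control cells), OTX2 and the retinal factor CRX (241 ± 17.7 and 273 ± 10 CPM) were among those 7. The 2 that rose were NEUROD1 (147 ± 13.6 and 41.2 ± 2.24 CPM) and EYA1, which was scarce (0.816 ± 0.0645 and 0.0967 ± 0.0644 CPM). EYA1 passed the filter on low counts through the knockout libraries alone.

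The summed level of the release machinery overlapped between the groups, while its composition differed. The CPM of the 51 genes summed to 1079, 1101 and 1094 in the knockout libraries and to 1101, 1097 and 1058 in the control libraries, so the groups overlapped. Of the 51 genes, 42 passed the filter on low counts. Of these 42, 25 rose (59.5%) and 8 fell (19%) at an adjusted p under 0.05 (edgeR quasi-likelihood), against a background of 21.2% of all 18420 tested genes that rose and 18.5% that fell (39.7% called in all). With a null hypothesis of at most a 1.5-fold change, 14 genes were higher (33.3%) and 2 lower (4.76%), against 5.7% and 0.852% of all tested genes. The median log2 fold change was 0.55 over the 42 genes and 0.01 over all tested genes. SYN1, SYN3, SYNPR and SLC17A6 were not over the count filter in every library. The first 3 of them passed it through the knockout libraries alone, so that their rise is not independent of the filter. Counts over the genes that passed therefore describe them and are not support for a direction. Without these 4 genes, 22 of 38 rose and 8 fell.

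The CPM ranges of the groups did not overlap for 27 genes that were higher and 8 that were lower in the knockout libraries, where the background is 26.2% and 23% of all tested genes (49.2% in either direction). Scarce and abundant genes differed in their direction. Of the 21 genes with a mean level of 8.44 CPM or more, 8 rose and 7 fell, and of the 21 below that level, which include SYN1, SYN3 and SYNPR, 17 rose and 1 fell. The level is the median of the 42 genes, chosen after their values were seen. Among all tested genes, 18.6% of those above the same level rose and 27.8% fell, and below it 24.3% rose and 7.28% fell.

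**Figure D1:**
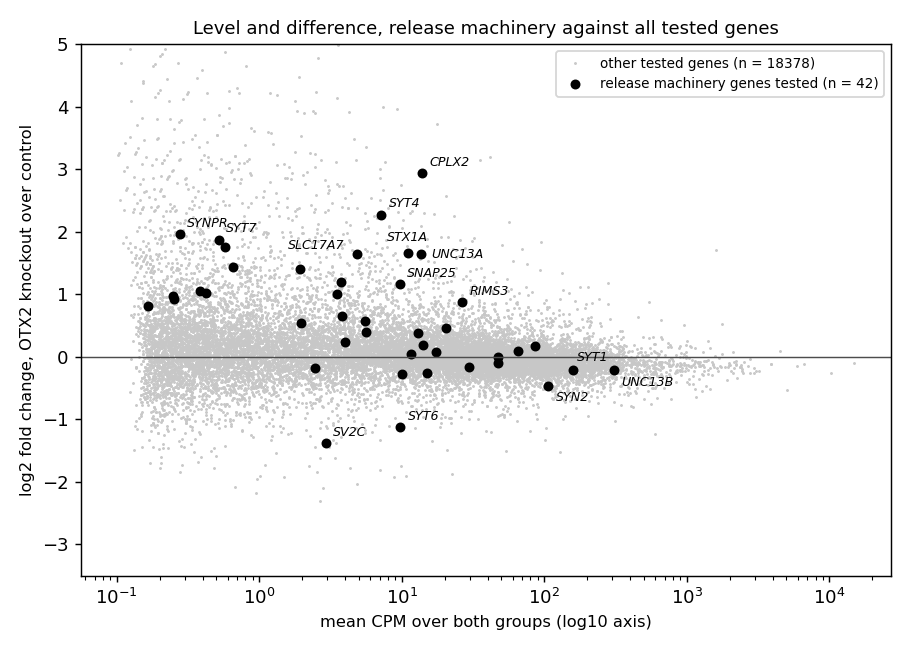
Mean CPM over both groups (log10 axis) against the log2 fold change of OTX2 knockout over control, with the 42 tested release machinery genes in black and all other tested genes in grey. CPLX2, SYT4, STX1A and UNC13A lie above 1.5, SYT6 and SV2C lie below -1, and the most abundant genes, UNC13B, SYT1 and SYN2, lie slightly below 0. The vertical axis leaves out 45 genes.

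Promoters are shown for the gene that rose most, CPLX2, for SYT4, which rose next most, and for the paralog pair UNC13A and UNC13B, which changed in opposite directions. Each is the stretch of 250 bases before the start of the gene in RefSeq on GRCh38, written 5′ to 3′ on the strand of the gene. Which start these cells use was not measured. Capitals mark TCAGCACC and GGACAGC, the left and right parts of the RE1 element through which the repressor REST binds neuronal genes, on either strand. SYT4 and UNC13A hold a match, and CPLX2 and UNC13B hold none. The GENCODE annotation, used for the gene coordinates further below, places these starts elsewhere. By GENCODE, part of each stretch lies inside the gene, as do both matches.
CPLX2 (GRCh38.p14, chr5:175796283-175796532, plus strand): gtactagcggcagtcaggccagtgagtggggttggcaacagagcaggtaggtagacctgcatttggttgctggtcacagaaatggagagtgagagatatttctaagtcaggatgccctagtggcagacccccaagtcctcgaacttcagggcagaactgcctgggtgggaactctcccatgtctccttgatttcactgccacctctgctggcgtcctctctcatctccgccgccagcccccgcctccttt
SYT4 (GRCh38.p14, chr18:43277491-43277740, minus strand): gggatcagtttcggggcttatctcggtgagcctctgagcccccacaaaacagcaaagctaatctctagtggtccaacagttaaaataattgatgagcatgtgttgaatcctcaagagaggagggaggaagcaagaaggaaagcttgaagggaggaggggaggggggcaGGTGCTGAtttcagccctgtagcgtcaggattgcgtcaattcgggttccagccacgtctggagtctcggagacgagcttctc
UNC13A (GRCh38.p14, chr19:17688355-17688604, minus strand): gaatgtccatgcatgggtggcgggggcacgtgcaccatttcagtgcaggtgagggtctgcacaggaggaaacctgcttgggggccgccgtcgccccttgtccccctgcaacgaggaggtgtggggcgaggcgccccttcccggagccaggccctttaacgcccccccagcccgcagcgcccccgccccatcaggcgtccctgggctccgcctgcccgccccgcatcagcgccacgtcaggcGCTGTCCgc
UNC13B (GRCh38.p14, chr9:35161759-35162008, plus strand): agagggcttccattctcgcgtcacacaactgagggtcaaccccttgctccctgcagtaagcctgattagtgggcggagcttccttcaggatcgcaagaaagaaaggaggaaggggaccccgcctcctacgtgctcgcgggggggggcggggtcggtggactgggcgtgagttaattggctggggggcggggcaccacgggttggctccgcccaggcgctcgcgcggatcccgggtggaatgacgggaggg

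RefSeq promoters were found for 41 of the 51 genes and for 27305 genes in all, and 6 short motifs, chosen with results known, were searched in the stretch of 250 bases on both strands. TCAGCACC was in 6 of the 41 (14.6%), against 1.34% of all promoters, and GGACAGC was in another 6 (14.6%), against 4.78%. TAATCC, the bicoid-type sequence that OTX2 and CRX recognise, was in 4 of 41 (9.76%, against 5.67%), in the promoters of CPLX3, CPLX4, RAB3B and STXBP5. The E-boxes CAGCTG, a palindrome counted once, and CAGATG, read by basic helix-loop-helix factors, were in 7 (17.1%, against 13.8%) and 5 (12.2%, against 12.2%). TATAAA was in 0 of 41, against 11.1% of all promoters, and the median GC content was 68.4% in the 41 promoters and 58% in all. Among the 10764 promoters of genes that were tested, a set closer to expressed genes, the shares were 1.22% for TCAGCACC, 5.19% for GGACAGC, 4.32% for TAATCC, 12.9% for CAGCTG, 8.26% for CAGATG and 5.47% for TATAAA. The 41 promoters include those of genes under the filter. No 2 of these motifs contain each other.

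The promoters with TCAGCACC are shown from 4 bases before the match, in the direction of the match, with the match in capitals and coordinates on GRCh38. They belonged to 2 genes that rose, SYT4 and SYN1, to 3 that fell, SV2C, SV2B and PCLO, and to SYT3, which was under the filter. TCAGCACC was thus found in RefSeq promoters of genes that rose and of genes that fell. By GENCODE, the SYT4 match lies inside the gene, and SYT3 starts far from its match, at 50639827. GGACAGC was in the promoters of 4 genes that rose (BSN, RAB3C, SYNPR and UNC13A), of 1 that fell, SYT6, and of CPLX3, which was under the filter. Promoters were found for 19 of the genes that rose and 7 of those that fell. GGACAGC had no exact match within the stretches shown. In the SYN1 stretch, TCAGCACC is closely followed by ggacagt, which differs from GGACAGC in the last base only.
SYT4 (chr18:43277561-43277590, plus strand): gaaaTCAGCACCtgcccccctcccctcctc
SYN1 (chrX:47620064-47620093, minus strand): agctTCAGCACCgcggacagtgccttcgcc
SV2C (chr5:76083158-76083187, plus strand): cgccTCAGCACCgcgacttgccggagcacc
SV2B (chr15:91099530-91099559, minus strand): aggcTCAGCACCgaaagactctttaggagc
PCLO (chr7:83163030-83163059, plus strand): gctcTCAGCACCgatttaaaggagcccagt
SYT3 (chr19:50658276-50658305, minus strand): ccccTCAGCACCcttacaccaaccacgctc

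Among the synaptotagmins that sense calcium, the abundant SYT1 fell slightly, SYT6 fell by more, and the scarce SYT7 and SYT2 rose. SYT1, the trigger of fast synchronous release, held 139, 147 and 156.6 CPM in the knockout libraries, against 180, 173 and 157.2 CPM in the control libraries. The ranges touched without overlapping, and the log2 fold change was -0.20 (SE 0.06, adjusted p = 0.0109, edgeR quasi-likelihood). This call was lost without knockout replicate 1 (-0.16, adjusted p = 0.0685) and with library totals alone (-0.13, adjusted p = 0.0874). SYT6, a synaptotagmin also known from the acrosome reaction of sperm, held 5.76, 6.24 and 6.48 CPM in the knockout libraries, against 14.2, 13.5 and 12.5 CPM in the control libraries. Every knockout library was below every control library, a 2.18-fold fall (log2 fold change -1.12, SE 0.08, adjusted p = 2.28e-08). SYT7, a slow sensor of high calcium affinity, held 0.769, 0.808 and 0.869 CPM in the knockout libraries, against 0.235, 0.22 and 0.206 CPM in the control libraries, a 3.7-fold rise (log2 fold change 1.88, SE 0.24, adjusted p = 1.57e-05). The SYT7 level rests on 154 counts in the knockout group and 37 in the control group.

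SYT2, the fast sensor of many hindbrain synapses, averaged 0.521 ± 0.184 CPM in knockout and 0.248 ± 0.0588 CPM in control cells (SD, n = 3 per group, log2 fold change 1.05, adjusted p = 0.0158, edgeR quasi-likelihood). Its exons overlap PPP1R12B on the other strand, which has 96.1 times its count, so its value is uncertain. The SYT2 call was lost without knockout replicate 2 (0.73, adjusted p = 0.108) or control replicate 3 (0.89, adjusted p = 0.0592). SYT3, SYT5 and SYT9 were under the filter, with 5, 9 and 1 counts in the knockout group and 4, 8 and 0 counts in the control group.

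Of the synaptotagmins that do not act as calcium triggers, SYT4, SYT11 and SYT12 rose and SYT17 fell. SYT4 (chromosome 18, 43267878 to 43277650 on GRCh38, minus strand), an isoform of neurons and dense-core vesicles whose promoter is printed above, held 11.3, 12.6 and 11.8 CPM in the knockout libraries, against 2.42, 2.64 and 2.31 CPM in the control libraries. The groups were far apart, at 2.27 on the log2 scale (SE 0.09, adjusted p = 4.98e-11). SYT11, which restrains endocytosis in neurons, held 2.79, 2.88 and 2.75 CPM in the knockout libraries, against 1.23, 1.101 and 0.844 CPM in the control libraries, a 2.65-fold rise (log2 fold change 1.40, SE 0.14, adjusted p = 1.78e-06). SYT12 averaged 2.32 ± 0.219 CPM in knockout and 1.6 ± 0.414 CPM in control cells, and its groups overlapped, with control replicate 1 at 2.08 CPM and knockout replicate 3 at 2.07 CPM. The SYT12 rise (log2 fold change 0.53, adjusted p = 0.0174) was lost without knockout replicate 1 (adjusted p = 0.0552), knockout replicate 2 (0.0665), control replicate 2 (0.0850) or control replicate 3 (0.0708). SYT17 averaged 13.6 ± 1.12 CPM in knockout and 16.3 ± 0.576 CPM in control cells (log2 fold change -0.26, SE 0.07, adjusted p = 0.00745). SYT13 had 1 count in the knockout group and 0 in the control group.

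Of the 4 SNARE proteins 3 rose (75%, where 21.2% of all tested genes rose), the plasma membrane partners STX1A and SNAP25 among them. STX1A, the syntaxin of the presynaptic membrane, held 16.7, 17.9 and 15.9 CPM in the knockout libraries, against 4.69, 6.15 and 5.14 CPM in the control libraries. The lowest knockout library was over the highest control library, a 3.16-fold rise (log2 fold change 1.66, SE 0.09, adjusted p = 1.78e-09, edgeR quasi-likelihood). STX1A is uncertain because its exons overlap BUD23 (in the table as WBSCR22) on the other strand, which has 2.55 times its count and averaged 28.6 CPM in knockout and 29.7 CPM in control cells (log2 fold change -0.05, adjusted p = 0.465). SNAP25, which lends the SNARE bundle a pair of helices, held 12.3, 14.6 and 13.2 CPM in the knockout libraries, against 6.55, 5.74 and 5.70 CPM in the control libraries, a 2.23-fold rise (log2 fold change 1.16, SE 0.08, adjusted p = 4.93e-08). VAMP1, a vesicle SNARE, averaged 6.42 ± 0.439 CPM in knockout and 4.88 ± 0.526 CPM in control cells (log2 fold change 0.40, SE 0.10, adjusted p = 0.00409), but its exons overlap TAPBPL on the other strand. VAMP2, the vesicle SNARE of most forebrain synapses, did not pass, with 4.31 ± 0.226 CPM in knockout and 3.67 ± 0.319 CPM in control cells (log2 fold change 0.23, adjusted p = 0.0785). It passed without control replicate 1 (0.29, adjusted p = 0.0439) and with library totals alone (0.31, adjusted p = 0.0271).

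Complexins showed the largest rise of the 42 genes. CPLX2 (chromosome 5, 175796310 to 175884020, plus strand), a complexin of glutamatergic neurons, held 23.1, 26.2 and 24.3 CPM in the knockout libraries, against 3.25, 3.54 and 2.79 CPM in the control libraries. The 3 knockout libraries lay far above the 3 control libraries, a 7.68-fold rise (log2 fold change 2.94, SE 0.09, adjusted p = 3.15e-12, edgeR quasi-likelihood). CPLX1, its paralog at fast synapses, rose 2.72-fold from a lower base, with 1.11, 0.922 and 0.837 CPM in the knockout libraries, against 0.433, 0.305 and 0.319 CPM in the control libraries (adjusted p = 0.000136). The complexins of the retina were nearly silent: CPLX3 had 0 counts in the 6 libraries and CPLX4 had 11 counts in the knockout group and 4 in the control group. STXBP5, or tomosyn, which competes with VAMP for the SNARE complex, held 44.5, 45.2 and 46.9 CPM in the knockout libraries, against 48.9, 48.5 and 48.3 CPM in the control libraries. Its groups did not overlap, but the difference did not pass (log2 fold change -0.09, adjusted p = 0.123).

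**Figure D2:**
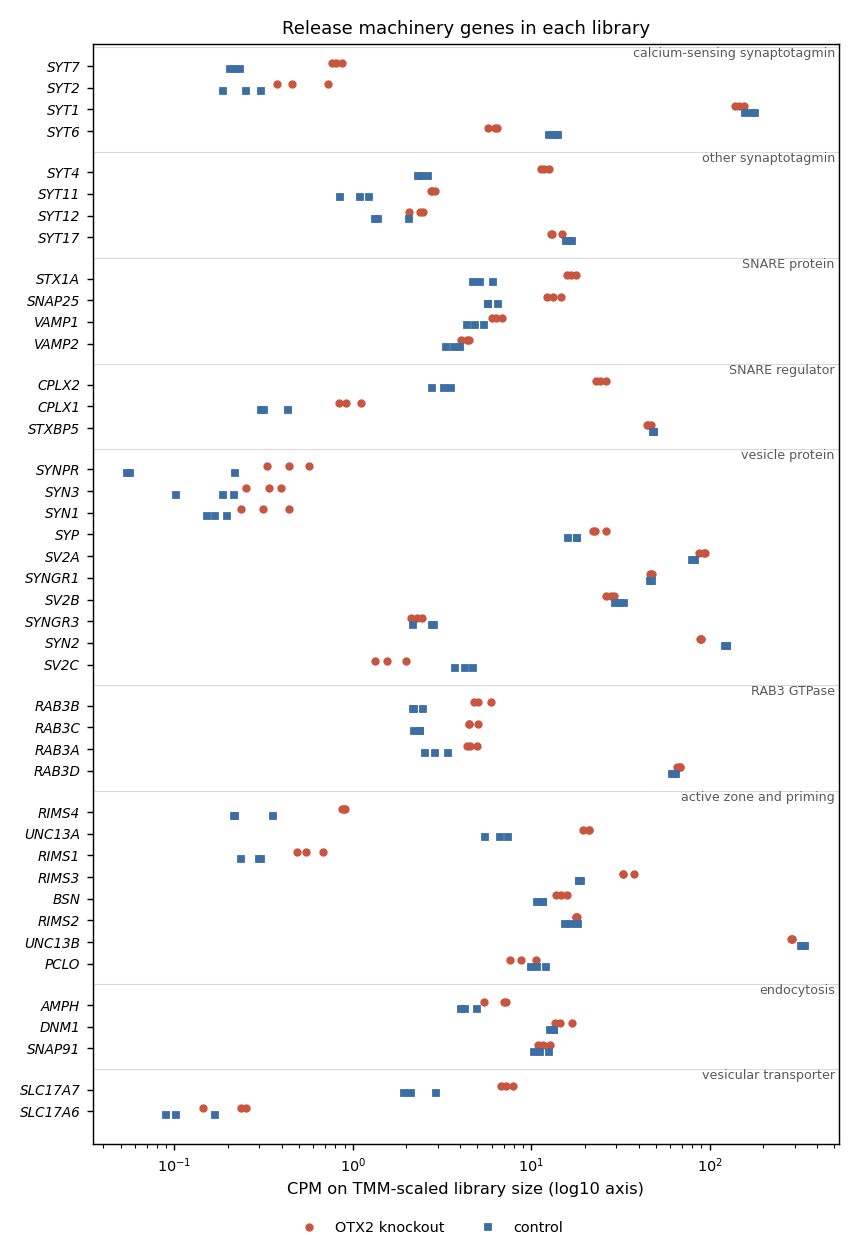
CPM (log10 axis) of the 42 tested release machinery genes in each of 3 OTX2 knockout libraries (circles) and 3 control libraries (squares), grouped by role and sorted by log2 fold change within a role. CPLX2, SYT4, STX1A and UNC13A have knockout circles well to the right of the control squares, and SYT6 and SV2C well to the left.

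The vesicle proteins split. Of 10 tested, 5 rose (50%) and 3 fell (30%), against 21.2% and 18.5% of all tested genes. SYN1, SYN3 and SYNPR, among those that rose, passed the filter through the knockout libraries alone, so that their rise is not independent of the filter. SYN2, a synapsin and in control cells the third most abundant gene of the set by CPM, held 89.51, 89.45 and 88.8 CPM in the knockout libraries, against 125, 121 and 125 CPM in the control libraries. Values within each group were close, and SYN2 fell 1.39-fold (log2 fold change -0.47, SE 0.04, adjusted p = 5.45e-07, edgeR quasi-likelihood). SV2C, an SV2 glycoprotein of basal ganglia and retina, held 1.33, 1.55 and 1.99 CPM in the knockout libraries, against 4.73, 4.25 and 3.75 CPM in the control libraries. This was the largest fall of the 42 genes, 2.61-fold (log2 fold change -1.38, SE 0.14, adjusted p = 1.98e-06). SYP, synaptophysin, the classical marker of neuronal vesicles, held 22.8, 26.3 and 22.2 CPM in the knockout libraries, against 18, 18 and 16 CPM in the control libraries, a 1.37-fold rise (log2 fold change 0.45, SE 0.07, adjusted p = 0.000128).

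Smaller changes were seen in the other SV2 genes. SV2A, the binding site of levetiracetam, averaged 91.8 ± 3.69 CPM in knockout and 81.4 ± 1.85 CPM in control cells (log2 fold change 0.17, adjusted p = 0.00897), and the call was lost without knockout replicate 2 (0.16, adjusted p = 0.0597). SV2B averaged 27.9 ± 1.45 CPM in knockout and 31.3 ± 1.73 CPM in control cells (log2 fold change -0.17, adjusted p = 0.0310). The SV2B call was lost without knockout replicate 1 (adjusted p = 0.145), control replicate 1 (0.0787) or control replicate 2 (0.0816), with upper-quartile factors (0.0513) and with library totals alone (0.239). The synaptogyrins, relatives of synaptophysin, did not pass. SYNGR1 averaged 47 ± 0.582 CPM in knockout and 46.9 ± 0.799 CPM in control cells (adjusted p = 0.962), and SYNGR3 2.29 ± 0.150 and 2.6 ± 0.363 CPM (adjusted p = 0.285).

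The remaining vesicle proteins were scarce. SYNPR, synaptoporin, had 84 counts in the knockout group and 19 in the control group, 13 of them in control replicate 2 (log2 fold change 1.96, SE 0.43, adjusted p = 0.00210, edgeR quasi-likelihood). Without control replicate 2 the value was 2.96. SYN3 had 62 counts in the knockout group and 28 in the control group (log2 fold change 0.97, adjusted p = 0.0385). The SYN3 call was lost with DESeq2 (adjusted p = 0.114) and without knockout replicate 2 (0.0961), knockout replicate 3 (0.130), control replicate 2 (0.173) or control replicate 3 (0.0608). SYN1 had 62 counts in the knockout group and 29 in the control group (log2 fold change 0.92, adjusted p = 0.0418), and its exons overlap the far more abundant ARAF on the other strand. Its call was lost with DESeq2 (adjusted p = 0.129), with limma-voom (0.0534), without knockout replicate 1 (0.0770) or 2 (0.207), and without control replicate 1 (0.0570), 2 (0.129) or 3 (0.0930). The stretch of the SYN1 promoter with TCAGCACC is among those printed above.

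Of the 4 RAB3 GTPases, which mark vesicles for docking, the 3 scarce paralogs rose (75%, where 21.2% of all tested genes rose). RAB3B held 4.77, 5.01 and 5.97 CPM in the knockout libraries, against 2.47, 2.18 and 2.21 CPM in the control libraries, a 2.29-fold rise (log2 fold change 1.2, SE 0.11, adjusted p = 8.45e-07, edgeR quasi-likelihood). RAB3C held 4.46, 5.06 and 4.49 CPM in the knockout libraries, against 2.38, 2.39 and 2.19 CPM in the control libraries (log2 fold change 1.01, SE 0.10, adjusted p = 2.03e-06). For both genes the lowest knockout library was well over the highest control library. RAB3A, the main neuronal form, averaged 4.63 ± 0.314 CPM in knockout and 2.96 ± 0.447 CPM in control cells (log2 fold change 0.65, adjusted p = 0.000387), and its exons overlap MPV17L2 on the other strand, which had a log2 fold change of 0.02 (adjusted p = 0.926). RAB3D, the form of secretory cells and the abundant one here, did not pass, with 67.5 ± 1.58 CPM in knockout and 63.3 ± 1.44 CPM in control cells (log2 fold change 0.09, adjusted p = 0.123). It passed with library totals alone (0.17, adjusted p = 0.00687), and it overlaps TMEM205, which rose (log2 fold change 0.34, adjusted p = 0.000136).

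At the active zone, UNC13A and 3 of the 4 RIMS genes rose while UNC13B fell. Among all tested genes, 21.2% rose and 18.5% fell. UNC13A (chromosome 19, 17601328 to 17688365, minus strand), the priming factor of most glutamatergic synapses, held 21.1, 21.1 and 19.5 CPM in the knockout libraries, against 7.44, 6.71 and 5.50 CPM in the control libraries. This 3.14-fold rise left the groups far apart (log2 fold change 1.65, SE 0.09, adjusted p = 1.58e-09, edgeR quasi-likelihood). UNC13B (chromosome 9, 35161992 to 35405338, plus strand), its paralog and by CPM the most abundant gene of the set, held 288, 285 and 289 CPM in the knockout libraries, against 326, 341 and 332 CPM in the control libraries. Every knockout library was lower than every control library, a 1.16-fold fall (log2 fold change -0.21, SE 0.04, adjusted p = 0.00125). UNC13C, known from cerebellar granule cells, had 11 counts in the knockout group and 1 in the control group and was under the filter.

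RIMS3, a short RIM protein, held 32.5, 37.7 and 32.7 CPM in the knockout libraries, against 18.6, 19.0 and 18.5 CPM in the control libraries, a 1.83-fold rise (log2 fold change 0.87, SE 0.06, adjusted p = 3.8e-08, edgeR quasi-likelihood). RIMS4, also short, rose 3.36-fold on 168 counts in the knockout group and 44 in the control group (adjusted p = 3.83e-05), and the full-length RIMS1 rose 2.03-fold on 108 and 47 counts (adjusted p = 0.00538). RIMS2, the full-length RIM that was abundant here, did not pass, with 17.8 ± 0.159 CPM in knockout and 16.8 ± 1.4 CPM in control cells (log2 fold change 0.08, adjusted p = 0.330). The giant scaffolds of the active zone moved apart. BSN, bassoon, held 15.9, 14.7 and 13.8 CPM in the knockout libraries, against 11.7, 10.7 and 11.6 CPM in the control libraries (log2 fold change 0.38, SE 0.07, adjusted p = 0.000492). PCLO, piccolo, held 10.6, 7.63 and 8.80 CPM in the knockout libraries, against 12.1, 10.03 and 10.8 CPM in the control libraries, with overlap between the groups (log2 fold change -0.28, SE 0.10, adjusted p = 0.0444). The PCLO call was lost without knockout replicate 2 (adjusted p = 0.194) or 3 (0.0796) and without control replicate 1 (0.133) or 3 (0.0547), with upper-quartile factors (0.0712), with library totals alone (0.186) and with the stricter filter (0.0739).

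**Figure D3:**
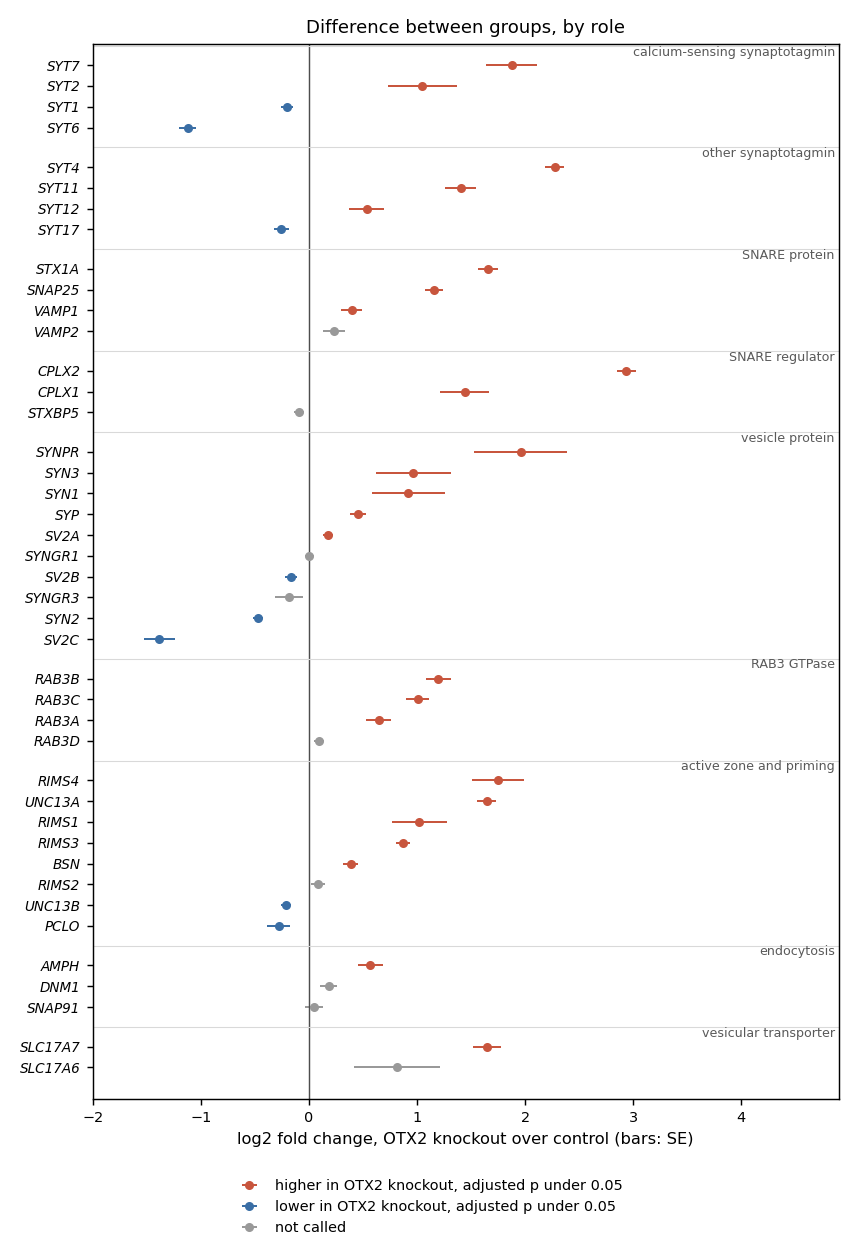
Log2 fold change of OTX2 knockout over control with its SE for the 42 tested release machinery genes, grouped by role, with red for genes that were higher, blue for genes that were lower and grey for genes that did not pass (edgeR quasi-likelihood, adjusted p under 0.05). CPLX2 is highest at 2.94 and SV2C lowest at -1.38, and every role with tested genes holds at least 1 red point.

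Of the 3 endocytosis genes 1 rose (33.3%), where 21.2% of all tested genes rose. AMPH, amphiphysin, rose, with 5.45, 7.02 and 7.22 CPM in the knockout libraries, against 4.98, 4.23 and 4.05 CPM in the control libraries (log2 fold change 0.57, SE 0.12, adjusted p = 0.00115, edgeR quasi-likelihood). DNM1, the neuronal dynamin that cuts vesicles from the membrane, did not pass, with 15 ± 1.79 CPM in knockout and 13.2 ± 0.344 CPM in control cells (log2 fold change 0.18, adjusted p = 0.0772). It passed without knockout replicate 2 (0.25, adjusted p = 0.0298) and with library totals alone (0.26, adjusted p = 0.0262), and its exons overlap CIZ1, which has 5.61 times its count. SNAP91, the clathrin adaptor AP180, averaged 11.8 ± 0.874 CPM in knockout and 11.4 ± 1.18 CPM in control cells (adjusted p = 0.706). SNPH, syntaphilin, which anchors axonal mitochondria, was under the filter with 18 counts in the knockout group and 11 in the control group.

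Among vesicular transporters, which set the transmitter a vesicle holds, the glutamate transporter SLC17A7 (VGLUT1) rose and the GABA transporter was nearly without counts. SLC17A7 held 6.74, 7.26 and 7.96 CPM in the knockout libraries, against 2.94, 2.13 and 1.93 CPM in the control libraries. All knockout libraries were over all control libraries, a 3.13-fold rise (log2 fold change 1.65, SE 0.13, adjusted p = 1.02e-07, edgeR quasi-likelihood). SLC17A6 (VGLUT2) had 40 counts in the knockout group and 20 in the control group, and its groups overlapped (log2 fold change 0.82, SE 0.40, adjusted p = 0.119). SLC32A1, which loads GABA and glycine, had 1 count in the knockout group and 0 in the control group.

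To compare paralogs, CPM was divided by the merged exon length of each gene in kilobases, and each paralog was given as a share of its family. By CPM per kb, the order of the set in knockout cells began with SYT1 (22.7), SV2A (19), UNC13B (16), SYN2 (15.7) and RAB3D (15.3), and in control cells with SYT1 (26.2), SYN2 (21.8), UNC13B (18.6), SV2A (16.9) and RAB3D (14.3). By mean share, the leading paralog of each family was the same in both groups. UNC13A made up 10.3% ± 0.471 of the UNC13 family per kb in knockout cells and 3.06% ± 0.474 in control cells (SD, n = 3 per group), and UNC13B the larger part, 89.7% ± 0.468 and 96.9% ± 0.474. SYT4 made up 9.14% ± 0.502 of the synaptotagmins in knockout cells and 1.74% ± 0.108 in control cells, while SYT1 made up 77.3% ± 0.518 and 81.9% ± 0.233 and SYT6 4.11% ± 0.0459 and 8.23% ± 0.0701. These shares did not overlap between the groups.

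Of 9 families, complexins had the largest ratio between the groups in summed level, with 3.87 ± 0.184 CPM per kb in knockout and 0.602 ± 0.0675 CPM per kb in control cells, and CPLX2 made up 89.3% ± 1.86 of it in knockout and 74.8% ± 4.52 in control cells. The RIMS family summed to 6.26 ± 0.411 CPM per kb in knockout and 3.9 ± 0.0966 CPM per kb in control cells, and RIMS3 made up 75.6% ± 1.46 and 66.5% ± 1.59 of it. The synapsins summed to 15.8 ± 0.0842 CPM per kb in knockout and 21.9 ± 0.394 CPM per kb in control cells, with SYN2 at 99.1% ± 0.163 and 99.7% ± 0.0708 of the family. VAMP1 and VAMP2 kept overlapping shares, with VAMP1 at 57.6% ± 2.79 in knockout and 54.8% ± 4.08 in control cells. With the longest transcript as length, RIMS3 made up 65.6% in knockout and 54.2% in control cells, and VAMP1 48.2% and 45.4%, which makes VAMP2 the leading vesicle SNARE. With 3 libraries per group an exact permutation test could not go below a p of 0.1, so these shares are given without a test.

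**Figure D4:**
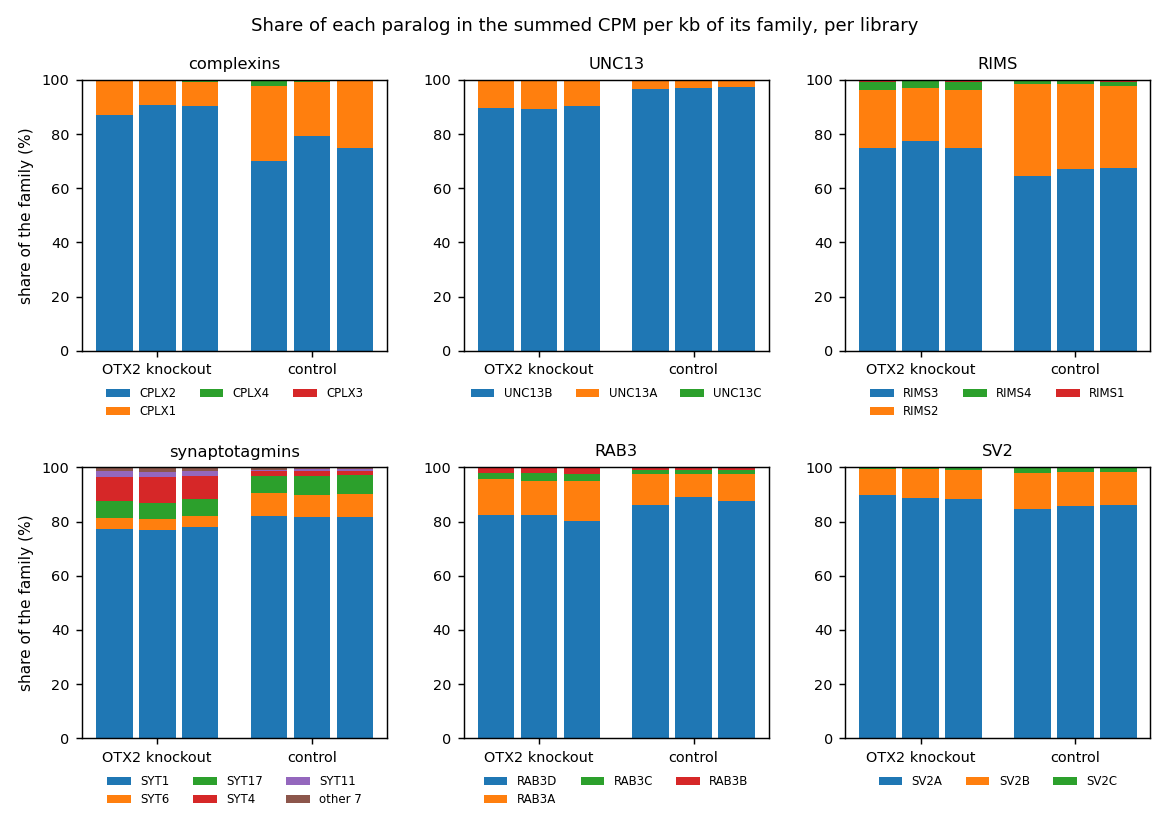
Share (%) of each paralog in the summed CPM per kb of merged exons of its family, with 1 bar per library and the 3 OTX2 knockout libraries left of the 3 control libraries. UNC13A and SYT4 take larger shares in the knockout libraries (10.3% and 9.14% on average, against 3.06% and 1.74%), and SYT6 and RIMS2 smaller ones.

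Other genes of the release pathway were taken from a list of 96 genes chosen from textbook knowledge, of which 84 were tested. Of these, 32 rose (38.1%), 14 fell (16.7%) and 38 did not pass, against 21.2% and 18.5% of all tested genes in each direction. Their median was 0.09 on the log2 scale. SNCB, among those that rose, passed the filter through the knockout libraries alone. Among the largest rises were those of STON2, an adaptor that retrieves synaptotagmin (6.86 ± 0.168 CPM in knockout and 1.17 ± 0.203 CPM in control cells), the secretory carrier SCAMP5 (5.22-fold), the liprins PPFIA4 (34.8 ± 2.6 and 12.9 ± 0.566 CPM) and PPFIA2 (2.22-fold), SNCG (2.66-fold), DNM3 (2.02-fold) and the vesicle protein SVOP (1.89-fold). Exons of SCAMP5 overlap RPP25. The falls were smaller. RAB3IP fell 1.61-fold, the active zone protein ERC2 1.41-fold, LIN7A 1.4-fold, SCAMP1 1.38-fold (284 ± 21.4 CPM in knockout and 391 ± 4.22 CPM in control cells), the endophilin SH3GL2 1.37-fold, RAB3IL1 1.36-fold, RAB3GAP1 1.28-fold and the syntaxin STX4 1.28-fold. RAB3GAP1 overlaps ZRANB3. The smallest of these log2 fold changes in size was -0.36, for STX4 and RAB3GAP1, and the largest adjusted p was 0.00148, for RAB3IL1 (edgeR quasi-likelihood).

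Markers of other cell states also differed between the groups, not all in the same direction. For the counts that follow, 21.2% of all tested genes rose and 18.5% fell. All 8 tested of 10 neuronal markers rose. ELAVL4 and RBFOX3 passed the filter through the knockout libraries alone, so that their rise is not independent of the filter. The neuronal markers summed to 172 to 196.7 CPM in the knockout libraries and 57.1 to 67.8 CPM in the control libraries. NEFM held most of that sum, with means of 112 CPM in knockout and 40 CPM in control cells. MAP2, a dendritic microtubule protein, was among these markers at 12.5 ± 0.835 CPM in knockout and 1.57 ± 0.199 CPM in control cells. TUBB3 was listed at 0 in every library. Of 11 dense-core vesicle genes, 8 were tested and 7 rose. PCSK1, among those that rose, passed the filter through the knockout libraries alone. The dense-core genes summed to 348.8 to 365.2 CPM in the knockout libraries and 177.6 to 185.9 CPM in the control libraries. CPE held most of that sum, with means of 318 CPM in knockout and 168 CPM in control cells. Of 10 genes of the photoreceptor ribbon synapse, 7 were tested, 2 rose and 4 fell. The 10 genes summed to 229.3 to 235.4 CPM in the knockout libraries and 243.7 to 256.7 CPM in the control libraries. CTBP2, which did not pass, held most of that sum, with means of 142 CPM in knockout and 141 CPM in control cells. The part of these cell states in the results above was not tested.

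Defining markers of glia were at or near 0. Of 6 astroglial markers 2 were tested and 0 changed, with sums of 2.98 to 3.77 CPM in the knockout libraries and 3.18 to 3.47 CPM in the control libraries, and GJB6 was at 0. Of 7 microglial and macrophage markers 2 were tested and 1 fell. That gene, CSF1R, had 3, 12 and 19 counts in the knockout libraries and 29, 39 and 20 in the control libraries. It passed the filter through the control libraries alone, so that its fall is not independent of the filter. CSF1R averaged 0.18 CPM in knockout and 0.52 CPM in control cells. The 7 markers summed to 0.471 to 0.663 CPM in the knockout libraries and 0.732 to 0.931 CPM in the control libraries, and P2RY12 was at 0. Of the oligodendrocyte markers, the myelin genes MBP, MOG and MAG each averaged 0.00526 CPM or less in the knockout group and were at 0 in the control group. Of the 9 genes typical of the tumour type, 2 rose and 7 fell. EYA1, among those that rose, passed the filter through the knockout libraries alone. The 9 genes summed to 3266 to 3824 CPM in the knockout libraries and 4493 to 4813 CPM in the control libraries. The part of these lists in the results was not tested either.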

How the data were processed

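RNA was measured in 6 libraries of D283 cells, 3 with OTX2 targeted and 3 controls, which were grouped by the labels' genotype. The authors deposited unnormalized counts per gene symbol, with columns matched by title. STAR and hg38 are named per the submitters' processing notes, while sources used here do not give the counting program, annotation or strand setting. The table held 50883 symbols, 17682 of them at 0 in every library, and 18420 passed filterByExpr.

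Counts were scaled by TMM and compared with the quasi-likelihood F test of edgeR 4.0.16 in R 4.3.3, with a threshold of 0.05 after Benjamini-Hochberg adjustment over the 18420 genes. The test against a 1.5-fold change was glmTreat. Fold changes are ratios of mean CPM. Total counts of 54540645 to 62166870 set the precision. The fit had 4 residual degrees of freedom.

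Coordinates and exon lengths came from GENCODE release 29 on GRCh38, which matched the 51 genes. A gene is called uncertain where a gene with overlapping exons has a count over 10% of its own, because strand use in counting is not stated. Neighbours were found by symbol or RefSeq synonym, and those named after genomic clones were not matched. Promoters came from RefSeq (GRCh38 patch 14). Shares per kb depend on the length used.

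The genes and lists were chosen with earlier results of these data known. All 51 genes are accounted for. From the wider list the 8 largest rises and 8 largest falls with a mean count of at least 100 are named, except that 1 rise is not reported here. Other genes were chosen after their values were seen. Alternatives were RLE and upper-quartile factors, library totals, no filter, a filter of 1 CPM in 3 libraries, DESeq2 1.42.0, limma-voom (limma 3.58.1) and leaving out each library. NEFL, among the 10 neuronal markers, had no values here and was not analysed.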

Additional observations from a re-analysis of the deposited data

How the results depend on the processing

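The number of the 51 genes that rose, 25, was 25 with RLE or upper-quartile factors or no filter, 28 with library totals alone, 23 with DESeq2, 24 with limma-voom, 17 with the stricter filter, which tested 33 of the genes, and 21 to 25 when each library was left out (21 without knockout replicate 2 or control replicate 3). The number that fell, 8, was 5 with library totals alone, which raised the median log2 fold change of all genes by 0.078, and 6 to 7 when each library was left out. With the null of at most a 1.5-fold change, the counts were 14 higher and 2 lower. Library totals alone also moved the share of rises among all called genes to 71.9%, against 53.4%. In the wider list 26 to 42 genes rose and 10 to 17 fell over 13 alternatives.

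Chosen after seeing the data, counts without the 7 genes with uncertain overlap were 20 higher and 8 lower, without the 9 genes with a mean count under 100 they were 17 and 8, and without the 4 genes not over the filter in all 6 libraries 22 and 8. The sign of SYNGR1 turned with RLE factors (-0.0058), DESeq2 (-0.0058) and without knockout replicate 2 (-0.0108), knockout replicate 3 (-0.0034) or control replicate 3 (-0.0125), within a leave-one-out range of -0.0125 to 0.0137, and that of SNAP91 without knockout replicate 3 (-0.0204) or control replicate 3 (-0.0244), within -0.0244 to 0.1216. Both lie near 0 and neither passed. No paired analysis was possible because the labels give the groups no shared replicate numbers. SYN1, SYN3 and SYNPR had fewer than 100 counts in each group. The first 2 lost their call in 7 and 5 of 12 alternatives and SYNPR in 0 of 12, and the part of depth was not tested.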
